A study of Mus musculus with 30 samples.

Results

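The genes described here are 8 genes of joint and cartilage tissue, Prg4, Comp, Cilp, Cilp2, Fmod, Acan, Chad and Sox9, followed through 30 libraries of mouse stromal cells. They are 8 of the 43346 gene rows of a table of raw RNA-seq counts, found by matching Ensembl gene identifiers to symbols, and the 16 bone libraries are the main subject with lung and brain libraries as the contrast. The genes were chosen with their levels in the bone libraries in view, so the difference between exposed and control bone is given for them as a description, without a test, and so are contrasts that use the same bone values.

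The study asked how the stroma of metastatic sites differs once circulating tumour cell (CTC) lines have grown there. Female NSG mice of 6 to 8 weeks, an immunodeficient strain without mature T, B or NK cells, carried slow release estrogen pills and received 100000 GFP-LUC labelled cells of the human lines Brx07, Brx42, Brx50 or Brx68 into the left ventricle of the heart. Lesions were dissociated, cells without GFP were sorted, and total RNA of 50000 sorted cells made a library. The exposed libraries numbered 13 for bone (2 with Brx07, 4 with Brx50 and 7 with Brx68), 7 for lung (2 with Brx07, 1 with Brx42, 3 with Brx50 and 1 with Brx68) and 3 for brain (all Brx50), against 3, 2 and 2 control libraries from tumour-free mice. The sources do not state whether control mice carried estrogen pills. The gate was the absence of GFP alone, so any mouse cell of the dissected site could enter a library. For the Brx07 bone libraries the titles name the leg (exposed library 1) and the skull (exposed library 2), under the same label code. For the other bone libraries the bone is not given. The labels do not state that each library is a different mouse, so a p-value here reflects the scatter among libraries, which can be partly technical.

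Joints glide on cartilage and a synovial lining, and both coat their surfaces with lubricin, the product of Prg4. Beneath the surface, chondrocytes fill a collagen network with aggrecan, a proteoglycan whose charged sugar chains hold water, while Comp, Fmod, Chad and the Cilp proteins bind collagen and organise its fibres. Sox9 is the transcription factor that sets the chondrocyte fate and drives cartilage collagen and aggrecan genes. Several of these genes are not limited to cartilage. Fmod, Comp and Cilp are also products of tendon, ligament and other fibrous tissue, and Sox9 is also made by astrocytes and by epithelia such as the hair follicle.

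In the GENCODE M21 annotation of GRCm38, Prg4 (ENSMUSG00000006014) lay at chr1:150449412-150466165 on the minus strand and Fmod (ENSMUSG00000041559) at chr1:134037254-134048277 on the plus strand. Comp (ENSMUSG00000031849) lay at chr8:70373558-70382066 on the plus strand and Cilp2 (ENSMUSG00000044006) at chr8:69880369-69887687 on the minus strand. Cilp (ENSMUSG00000042254) lay at chr9:65265180-65280605, Acan (ENSMUSG00000030607) at chr7:79053483-79115099, Chad (ENSMUSG00000039084) at chr11:94565047-94569127 and Sox9 (ENSMUSG00000000567) at chr11:112782224-112787760, all on the plus strand. All 8 are protein-coding, with 1680 exon bases for Chad, the shortest, and 7469 for Acan, the longest. Exons of Prg4 shared 204 bases, 4.77% of its exon length, with Tpr on the opposite strand, and the sources do not state whether the counting used strand. Chad lay inside Acsf2, also on the opposite strand, with 0 exon bases shared.

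Promoter windows, from 250 bases before to 50 bases after the start, came from the RefSeq table of GRCm38.p6, which matched 5 of the 8 genes (Fmod, Acan, Cilp2, Cilp and Chad). Fmod and Cilp2 are shown because, of any pair of the 8 genes, they ranked the exposed bone libraries most alike (Spearman's rho 0.93). Capitals mark each CG pair, of which there were 3 in the Fmod window (chr1:134037004-134037303, plus strand) and 18 in the Cilp2 window (chr8:69887343-69887642, minus strand). The Cilp2 window lies wholly inside the GENCODE span of the gene, which starts at 69887687, so RefSeq and GENCODE place its start differently.
Fmod: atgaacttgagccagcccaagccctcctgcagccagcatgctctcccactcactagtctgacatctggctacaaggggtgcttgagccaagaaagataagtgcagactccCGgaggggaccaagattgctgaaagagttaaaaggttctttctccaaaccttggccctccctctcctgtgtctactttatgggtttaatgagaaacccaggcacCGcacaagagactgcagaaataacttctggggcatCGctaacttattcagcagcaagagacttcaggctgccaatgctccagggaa
Cilp2: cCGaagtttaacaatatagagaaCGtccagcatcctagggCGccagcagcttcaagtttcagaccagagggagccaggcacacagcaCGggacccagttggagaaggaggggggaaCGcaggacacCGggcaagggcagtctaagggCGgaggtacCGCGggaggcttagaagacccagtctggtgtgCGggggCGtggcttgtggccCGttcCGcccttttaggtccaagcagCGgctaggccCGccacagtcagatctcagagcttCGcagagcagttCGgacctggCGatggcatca
Their base composition also differed, with 51.0% G and C in Fmod and 61.3% in Cilp2, around a median of 52.7% over all 32851 windows. Chad is shown because its window (chr11:94564797-94565096, plus strand) alone held one of the motifs searched. Capitals mark a TATAAA that begins 28 bases before the start.
Chad: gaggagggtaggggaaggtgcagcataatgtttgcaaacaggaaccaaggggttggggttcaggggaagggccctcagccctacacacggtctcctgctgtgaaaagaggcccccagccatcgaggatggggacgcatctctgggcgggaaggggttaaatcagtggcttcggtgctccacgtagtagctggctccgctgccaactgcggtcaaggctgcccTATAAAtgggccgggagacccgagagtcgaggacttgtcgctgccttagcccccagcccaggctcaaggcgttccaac
The letters searched on both strands were ACAAAG and ACAATG, core forms bound by Sox proteins, and TATAAA, with no overlap among them. ACAAAG was in 18.7%, ACAATG in 12.6% and TATAAA in 13.6% of all windows. Neither ACAAAG nor ACAATG was among the letters of the 5 windows, and the match in Chad is a description of its letters.

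Totals ran from 4289012 to 15646947 counts per library, and levels are given as CPM, each gene's count divided by the total of its own library on the usual CPM scale. Several bone libraries stood apart by genes of other tissues. Exposed libraries 7 and 12 had the fewest genes with a count, 14769 and 16256, against 21233 to 25688 in the other exposed bone libraries. Neutrophil markers (8 genes) summed to 30689 to 40549 CPM in controls and to 29.6 to 2409 CPM in exposed libraries 2, 3, 6, 7, 8, 9, 12 and 13. Squamous epithelium markers (7 genes) summed to 6270, 10274 and 9104 CPM in exposed libraries 7, 8 and 13 against 655 to 1278 CPM in controls. Olfactory neuron markers (7 genes) summed to 2832 CPM in the skull library, and to 735, 711 and 186 CPM in exposed libraries 4, 5 and 9, against 32.1 to 36.6 CPM in controls. In bulk libraries fewer cells of a type and less RNA per cell cannot be told apart.

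Prg4 encodes lubricin, the lubricant of the joint surface. It stood at 27.7, 36.05 and 29.3 CPM in the 3 bone controls. Across the 13 exposed bone libraries it ran from 44.0 to 1164 CPM, with a median of 234. All 13 exposed libraries lay above all 3 controls, which held for 0.0328% of the 18278 genes tested in bone, and since such values chose the gene nothing is read from it. The edgeR test called 0% of these genes (458 had an unadjusted p under 0.05, and DESeq2 called 20 and limma-voom 2866). The fitted difference was 3.64 (log2, SE 1.27), a 12.5-fold difference over very unequal libraries. The median exposed library was 7.56 times the control mean, and limma-voom, which weights libraries by quality, gave a difference of 2.73. Exposed libraries 12, 9 and 8, all Brx68, reached 1164, 1072 and 943 CPM, whereas libraries 13 and 7, also Brx68, stood at 51.0 and 44.0 CPM. The lowest exposed library was thus close above the highest control.

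Comp, a collagen-binding protein of the thrombospondin family, stood at 37.1, 48.5 and 21.2 CPM in bone controls. The exposed libraries ran from 18.5 to 524 CPM with a median of 123, and 10 of 13 lay above all controls and 1 below. Cilp, a matrix protein of the intermediate layer of cartilage, was even in controls at 28.7, 24.8 and 24.4 CPM. In exposed libraries its lowest value was 13.1 CPM, its median 48.0 CPM and its highest 1158 CPM, 88.1 times the lowest. Of the 13, 10 lay above all controls and 2 below, and the fitted difference was 3.10 (log2, SE 1.48), or 1.91 by limma-voom. Exposed libraries 12 (1158 CPM), 9 (648 CPM), 11 (318 CPM), 3 (270 CPM) and 8 (168 CPM) held its high values, and the other 8 lay between 13.1 and 49.3 CPM.

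Cilp2, the relative of Cilp, did not separate the groups. Controls stood at 11.9, 17.7 and 15.5 CPM, and exposed libraries ran from 1.69 to 147 CPM around a median of 16.2 CPM. Above all controls lay 5 exposed libraries and below all of them 6, so that the fitted difference of 1.07 (log2, SE 1.04) came with exposed values on both sides. Without exposed library 3 it was 0.53, and by limma-voom 0.16. Fmod, which encodes fibromodulin, a proteoglycan that regulates collagen fibril thickness, was the most abundant of the 8 genes in control bone. It stood at 247, 341 and 209.8 CPM in controls and ran from 70.1 to 2246 CPM in exposed libraries with a median of 282 CPM. Exposed libraries 3, 8, 12, 11 and 9 reached 2246, 1838, 1267, 1193 and 1109 CPM, and 4 of 13 lay below every control.

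Acan, which encodes aggrecan, stood at 23.9, 37.6 and 15.7 CPM in bone controls. Exposed libraries ran from 5.86 to 323 CPM with a median of 35.1 CPM, and 6 of 13 lay above all controls. Its highest values were 323 CPM in exposed library 3, 121 CPM in the skull library and 118 CPM in library 9. Chad, which encodes chondroadherin, a leucine-rich protein that binds collagen and cell-surface integrins, stood at 11.5, 15.7 and 11.7 CPM in controls. Its exposed values ran from 13.5 to 176 CPM with a median of 95.3 CPM. For Chad 10 of 13 exposed libraries lay above all controls and none lay below, and 7 of them stood between 95.3 and 176 CPM.

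Sox9 stood at 40.5, 26.9 and 21.7 CPM in bone controls. Exposed libraries ran from 4.81 to 228 CPM with a median of 52.5 CPM, with 8 of 13 above all controls and 5 below, so no exposed value fell among the controls. The 3 highest, 228, 185 and 150 CPM in exposed libraries 13, 7 and 8, were in the same libraries that had the highest squamous epithelium sums. The part of those cells in the Sox9 level was not tested.

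**Figure D1:**
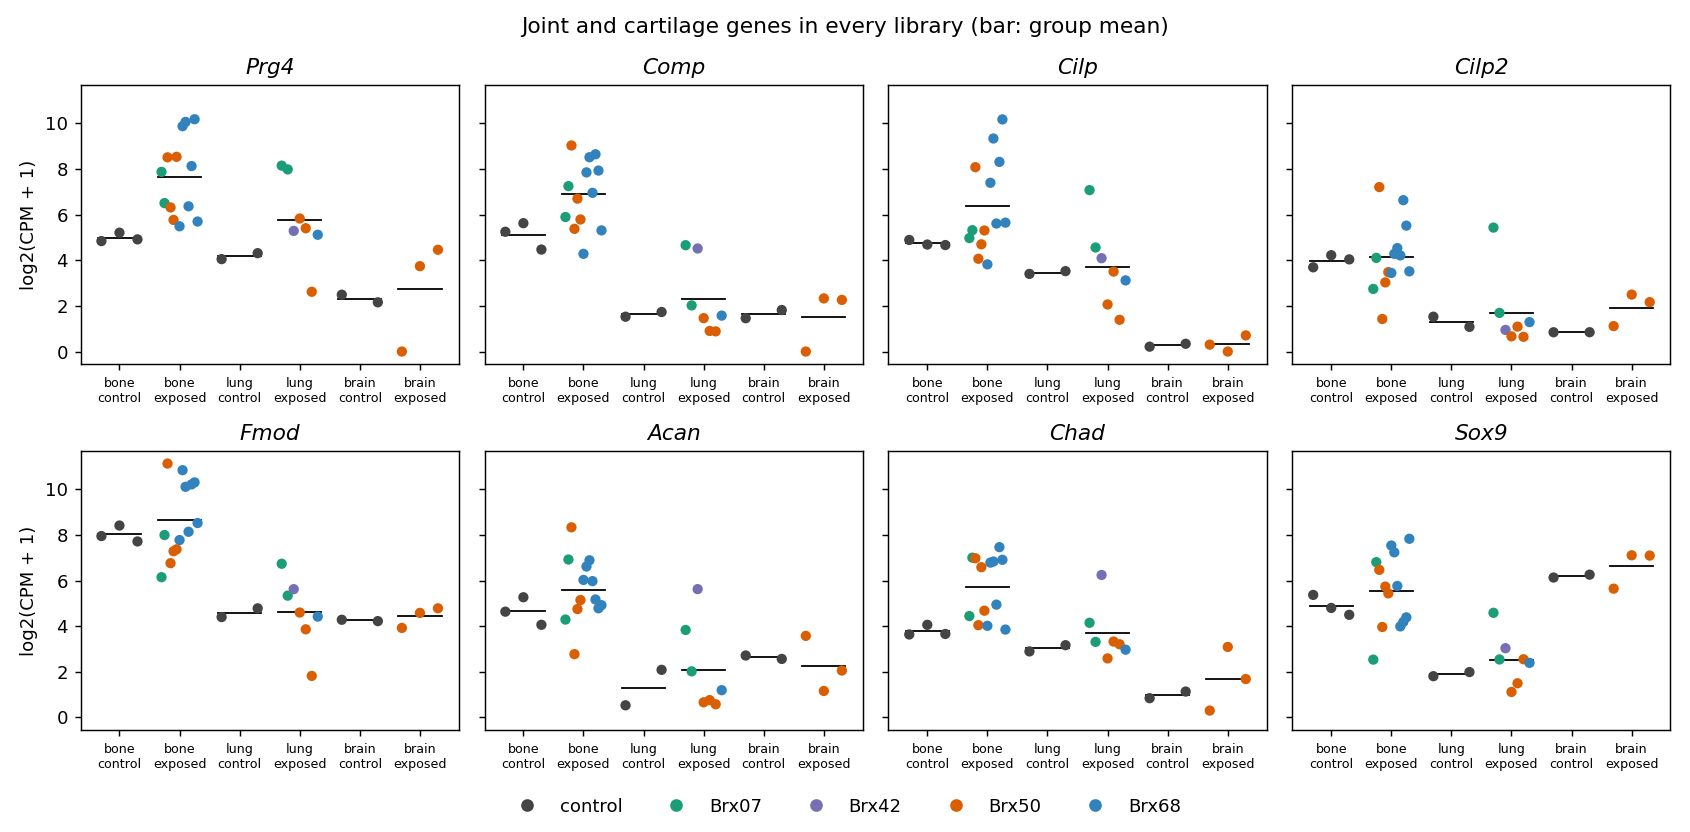
Level of each gene in every library on the log2(CPM + 1) scale, grouped by tissue and exposure and coloured by CTC line; bars are group means of the log2 values. All 13 exposed bone libraries sit above the 3 controls for Prg4, whereas Cilp2 and Fmod have exposed libraries on both sides of the controls and Sox9 is highest in brain and bone.

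Compared per kilobase of exon, Fmod led in control bone with 80.5 ± 20.4 CPM per kb (SD, n = 3). Comp followed at 12 ± 4.6 CPM per kb. Chad (7.71 ± 1.43), Prg4 (7.24 ± 1.04), Sox9 (7.18 ± 2.35) and Cilp (6.11 ± 0.56) came next, and each of these neighbours lay within the spread of the one before it, as Chad did of Comp. Cilp2 (3.48 ± 0.67) and Acan (3.45 ± 1.48) were the lowest, beyond the spread of Cilp, and did not differ from each other beyond their spread. By the medians of the 13 exposed libraries the order was Fmod (85.3 CPM per kb), Chad (56.7), Prg4 (54.8), Comp (41.6), Sox9 (12.7), Cilp (11.3), Acan (4.70) and Cilp2 (3.76).

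Summed over the 8 genes, control bone held 429, 548 and 349 CPM. The exposed libraries ran from 281 to 4089 CPM with a median of 788. High sums were found in exposed libraries 3 (4089 CPM, Brx50), 12 (4045 CPM), 8 (3555 CPM), 9 (3503 CPM) and 11 (2518 CPM), the last 4 all Brx68, and the other 8 lay between 281 and 912 CPM. Fmod made up 57.7% to 62.2% of the sum in every control. In exposed library 3 it was still 54.9%, but Prg4 made up 52.8% in the Brx07 leg library and 50.1% in exposed library 6, and Cilp made up 28.6% in library 12. On the log2 scale the mean of the exposed sums was 1.41 above that of the control sums, and 2.05 above it with Fmod left out of the sums.

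**Figure D2:**
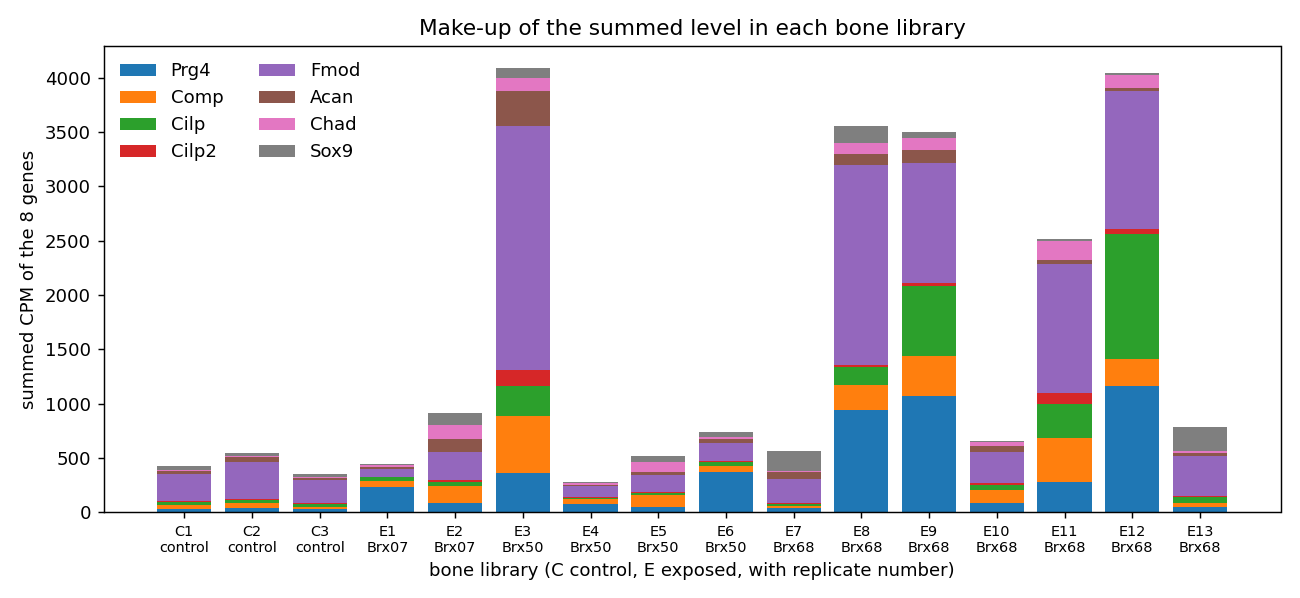
Stacked bars of the summed CPM of the 8 genes in each bone library (C, control; E, exposed; the number is the replicate and the line below it the CTC line). Exposed libraries 3, 8, 9, 11 and 12 reach 2518 to 4089 CPM. The share of Fmod, near 60% in controls, is 31.3% to 54.9% in these libraries and still the largest. Prg4 has the largest share in exposed libraries 1 and 6.

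The 8 genes did not vary as a block. Over the 13 exposed bone libraries, Spearman's rho was 0.93 between Cilp2 and Fmod, 0.91 between Chad and Comp and 0.90 between Cilp and Cilp2. It was 0.51 between Acan and Comp and 0.26 between Acan and Prg4. For Sox9 the values with the other 7 genes ran from -0.18 with Prg4 to 0.57 with Acan. These are descriptions over 13 points that share library totals and whatever cells each sort held.

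Summed gene lists of neighbouring tissues did not all follow the same members. Over the same 13 libraries Acan went with the summed hyaline cartilage list (rho 0.90), Fmod with the tendon and ligament list (0.85) and the fibroblast markers (0.83), Prg4 with the joint lining list (0.75), and Sox9 with pericyte (0.87) and squamous epithelium markers (0.82). Col2a1, the main collagen of hyaline cartilage, stood at 17.9, 12.3 and 9.53 CPM in bone controls. In exposed libraries 3, 8, 9 and 2 it reached 686, 582, 573 and 450 CPM. In exposed library 12, where Prg4 and Cilp were highest, Col2a1 was at 2.69 CPM, and in library 7 it had 0 counts, which allows up to 0.391 CPM. Library 12 held the highest Thbs4, a thrombospondin of tendon and muscle (5061 CPM against 153 to 250 CPM in controls). It also had the highest sum of 8 skeletal muscle markers (4784 CPM against 145 to 149 CPM). Thbs4 was high in exposed libraries 9, 3, 11 and 8 as well (2317, 1344, 1224 and 1097 CPM), and stood at 60.3 to 204 CPM in the rest.

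**Figure D3:**
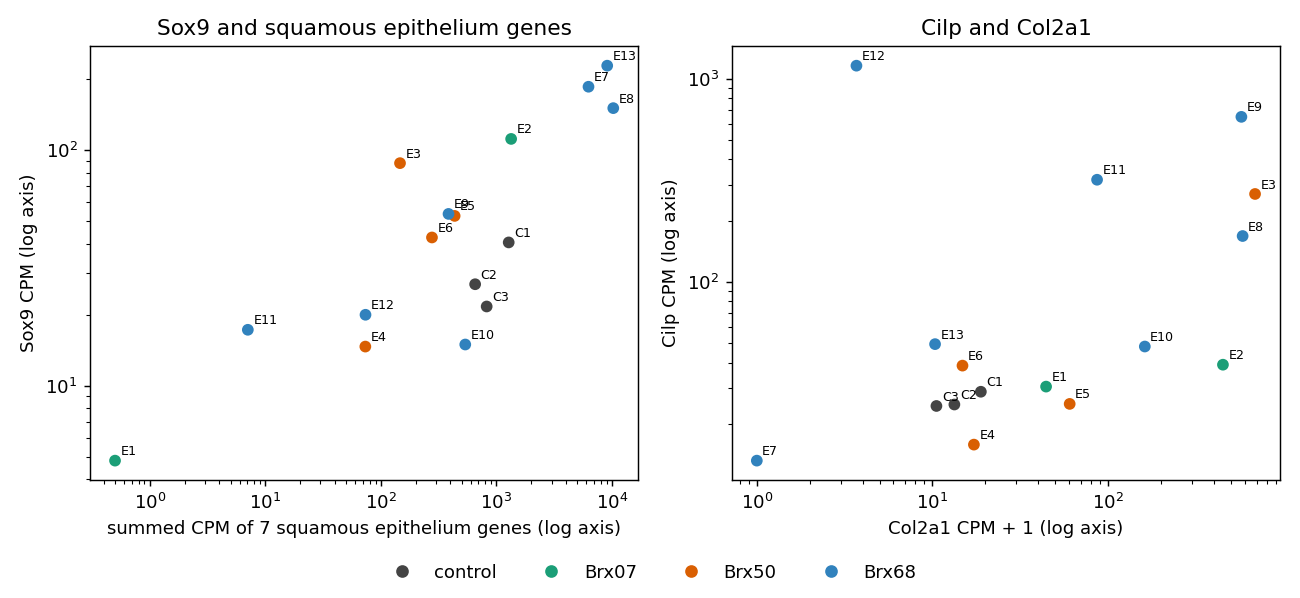
Left, Sox9 CPM against the summed CPM of 7 squamous epithelium genes; right, Cilp CPM against Col2a1 CPM + 1; all axes are logarithmic and each point is a bone library coloured by CTC line. Exposed libraries 7, 8 and 13 are at the upper right for Sox9, and library 12 has the highest Cilp (1158 CPM) at 2.69 CPM of Col2a1.

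Markers of other connective cells were also high in several of the libraries with high sums, though not in all. The 8 fibroblast markers, all counted in every bone library, summed to 68747, 51027, 39750 and 29836 CPM in exposed libraries 3, 9, 12 and 8, against 11067 to 20888 CPM in controls. Library 11 had a sum of 10332 CPM, below every control, with Col1a1, Col1a2 and Col3a1 below every control. Its other 5 markers lay above every control, such as Col6a3 at 837 CPM against 358 to 430 CPM and Pdgfra at 292 CPM against 130 to 146 CPM. The 8 osteoblast markers summed to 614, 435 and 249 CPM in exposed libraries 8, 3 and 9, against 46.5 to 114 CPM in controls, and to 135 and 45.1 CPM in libraries 12 and 11. In library 8 most of the sum was Ibsp, a bone sialoprotein (537 CPM against 13.8 to 60.1 CPM in controls), while Sp7, an osteoblast transcription factor, stood at 9.15 CPM against 13.98 to 31.9 CPM. Among osteocyte genes of that list, Mepe was at 0 in 10 and Sost in 5 of the 16 bone libraries, whereas Dmp1 and Phex were counted in every one. Dmp1 ran from 2.62 to 61.6 CPM in exposed libraries against 3.48 to 8.08 CPM in controls. For Phex the ranges were 2.55 to 28.9 CPM and 7.25 to 13.7 CPM. Of the 5 libraries with high sums, 4 had neutrophil sums of 29.6 to 1087 CPM and library 11 had 20388 CPM. Exposed libraries 2, 6, 7 and 13 had neutrophil sums of 311 to 2409 CPM and sums of the 8 genes of 569 to 912 CPM. The part of these cell types in the levels of the 8 genes was not tested.

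**Figure D4:**
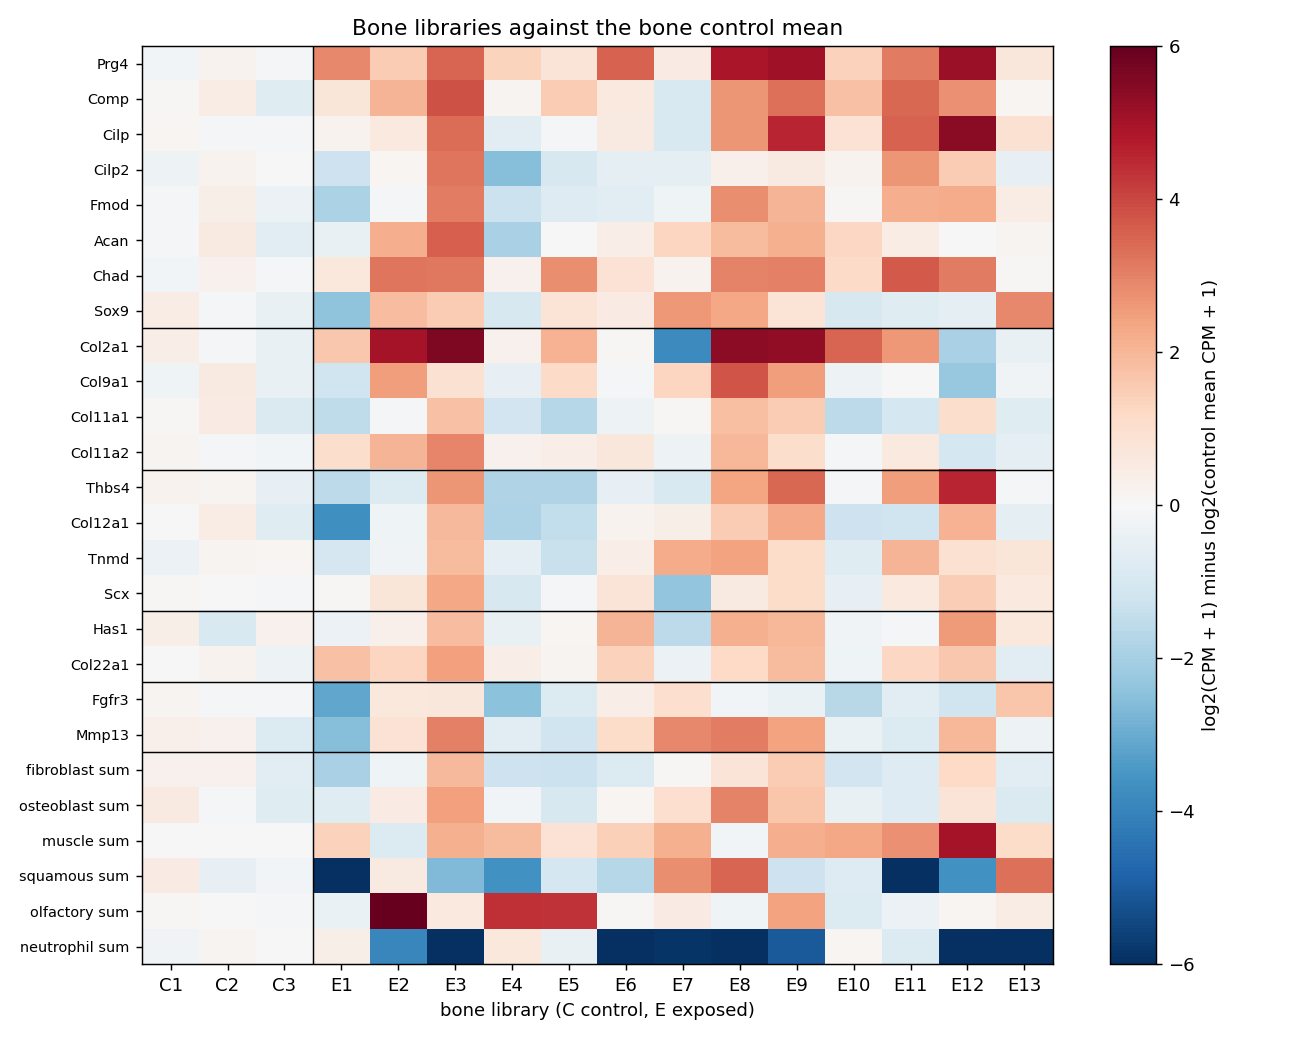
Colour shows log2(CPM + 1) minus the log2 of the control mean CPM + 1 in each bone library, capped at 6 in either direction, for the 8 genes, for 12 genes of related lists and for 6 summed marker lists; Col9a1, Tnmd, Scx and Col22a1 were chosen for display after their values were seen. Red columns for exposed libraries 3, 8, 9, 11 and 12 run through most of the 8 genes and through Thbs4. Col2a1 and the squamous and neutrophil sums mark sets of libraries that overlap with these only in part.

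None of 86 further genes of cartilage, joint and tendon passed the test in bone. They come from 9 lists, and edgeR tested 83 of them and called 0 (5 had an unadjusted p under 0.05). Their fitted differences were above 0 for 68 and had a median of 0.76 (log2), beside a median of 0.08 and 57.2% above 0 over all 18278 genes tested. Upper quartile scaling moved that median of all genes to 0.20. By limma-voom with quality weights 17 of the 83 were called (20.5%), 10 of them higher, beside 15.7% of all genes. In the hyaline matrix list 13 of 14 tested genes were fitted higher, with a list median of 1.57. Col11a1, a fibril collagen of cartilage, stood at 166 ± 72 CPM (SD, n = 3) in controls and at 219.8 ± 200.3 CPM (n = 13) in exposed libraries. Col27a1, another cartilage collagen, stood at 74.7 ± 19.6 and 123 ± 107 CPM, and Col11a2 at 27.5 ± 3.5 and 61.4 ± 57.3 CPM.

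The chondrocyte regulators were split, with 4 of 7 tested genes fitted higher and a median of 0.26. Trps1, a repressor active in growth plate cartilage, stood at 82.3 ± 12.2 CPM in controls (n = 3) and 126 ± 36 CPM in exposed bone (n = 13), Wwp2, a ubiquitin ligase, at 132 ± 2.6 and 90.4 ± 36.2 CPM, and Fgfr3, a receptor that restrains growth plate chondrocytes, at 75.7 ± 7.2 and 79.2 ± 67.4 CPM. Growth plate genes had a median of 0.60 with 4 of 6 fitted higher. Mmp13, a collagenase of hypertrophic cartilage, stood at 80.8 ± 31.2 CPM in controls and 254 ± 256 CPM in exposed libraries, whereas Alpl, the mineralising phosphatase, stood at 225 ± 25 and 122 ± 97 CPM. The joint lining list, where Prg4 would belong, had a median of 1.06 with 8 of 10 fitted higher. Its most abundant members were Has1, a hyaluronan synthase, at 66.8 ± 27.8 CPM in controls and 152 ± 124 CPM in exposed bone, and Clic5, a chloride channel protein, at 108 ± 8.3 and 94.8 ± 67.0 CPM.

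Tendon and ligament genes had a median of 0.94 with 9 of 10 fitted higher. Col12a1, a collagen on the surface of tendon fibrils, stood at 878 ± 341 CPM in controls and 1440 ± 1481 CPM in exposed libraries, and Thbs4 at 214 ± 53 and 925 ± 1429 CPM. The 8 small leucine-rich proteoglycans, relatives of Fmod and Chad, were all fitted higher with a median of 1.31. Dcn, which encodes decorin, stood at 537 ± 47 CPM in controls and 1123 ± 801 CPM in exposed bone, and Bgn, which encodes biglycan, at 345 ± 52 and 1032 ± 1060 CPM. The median exposed library lay below the control mean for Omd (6.65 against 13.7 CPM) and Ogn (97.1 against 101 CPM). For Lum it was close to it (157 against 155 CPM), and for Dcn, Bgn, Prelp, Aspn and Podn above it. The proteases that cut aggrecan and their inhibitors were all fitted higher too (9 of 9, median 0.93), with Adamts1 at 555 ± 89 and 689 ± 403 CPM. Relatives of Comp and Acan were fitted higher in 7 of 9 cases (median 0.74), although their most abundant gene Thbs1 stood at 4195 ± 967 CPM in controls and 3112 ± 2523 CPM in exposed bone. The genes that build and sulfate sugar chains had a median of 0.28 with 6 of 10 fitted higher. In each list the SD among exposed libraries was larger than among controls for the genes named, and no gene of the 9 lists passed the threshold.

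By CTC line, every one of the 8 genes overlapped between Brx50 and Brx68 bone. Prg4 stood at 53.6 to 371 CPM in the 4 Brx50 libraries and at 44.0 to 1164 CPM in the 7 Brx68 libraries, and the 2 Brx07 libraries held 234 and 90.1 CPM. Cilp stood at 15.8 to 270 CPM with Brx50, 13.1 to 1158 CPM with Brx68, and 30.4 and 39.0 CPM with Brx07. Prg4 therefore lay above the controls within each line, and Cilp had libraries near the controls in each line. The bone values of both lines were in view when the genes were chosen, so their contrast is a description as well. For Brx68 against Brx50 edgeR called 0 of the 8 beside 0% of 16628 genes tested (657 had an unadjusted p under 0.05, and DESeq2 called 31 genes). The widest fitted difference was that of Cilp, 2.02 (log2, SE 1.24, 95% interval -0.42 to 4.46). Prg4 differed by 1.42 (SE 1.06, interval -0.65 to 3.49) and Acan by -0.63 (SE 0.86, interval -2.31 to 1.06). Exposed library 3 weighed on this contrast, since without it the difference was 1.64 for Acan, 2.47 for Cilp2, 2.81 for Fmod and 3.85 for Cilp, none past the threshold.

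Summed over the 8 genes, control lung held 58.5 and 73.7 CPM, against 349 to 548 CPM in control bone. The exposed lung libraries were no more even than those of bone. Their sums ran from 24.3 to 643 CPM with a median of 91.7 CPM, and the highest, library 1, lay above every bone control. Prg4 stood at 15.6 and 18.9 CPM in the 2 lung controls and at 5.15 to 283 CPM in the 7 exposed libraries, with a median of 41.4 CPM. In 6 of 7 it lay above both controls, and both Brx07 libraries led with 283 and 253 CPM. The fitted difference was 2.60 (log2, SE 1.38, interval -0.11 to 5.31, edgeR adjusted p = 1.00, range 0.372 to 1.00 over the alternatives). For the 8 genes the edgeR count of calls was 0, beside 0% of 17132 genes tested (118 had an unadjusted p under 0.05, DESeq2 called 3 and limma-voom 1).

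Different lung libraries held the high values of different genes. Exposed library 3, the Brx42 library, had the highest Chad (75.1 CPM against 6.45 and 8.00 CPM in controls) and Acan (48.5 CPM against 0.448 and 3.26 CPM). Exposed library 1, with Brx07, had the highest Cilp (134 CPM against 9.59 and 10.5 CPM), Cilp2 (42.3 CPM against 1.88 and 1.12 CPM), Fmod (106 CPM against 20.2 and 26.6 CPM) and Sox9 (23.1 CPM against 2.51 and 2.98 CPM). That library also had a sum of the 8 fibroblast markers of 40468 CPM, against 242 to 3624 CPM in the other 6 exposed lung libraries and 1908 and 2295 CPM in controls, and its 6 endothelial markers summed to 1211 CPM. Exposed library 6 had an endothelial sum of 170.4 CPM against 5022 and 6015 CPM in controls and the lowest Prg4 and Fmod. The part of these cells in the result was not tested. Without libraries 1 and 6 the fitted difference was 2.28 for Prg4 (SE 0.89) and 2.62 for Acan (SE 1.99), that of Cilp was 0.26 in place of 1.57, and that of Cilp2 turned from 2.32 to -0.26, with none past the threshold. Leaving out library 3 alone lowered the fitted difference of Chad from 1.42 to 0.42 and that of Acan from 2.45 to 0.89.

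In brain, Sox9 was the most abundant of the 8 genes, at 69.4 and 75.8 CPM in controls and 49.2, 137 and 136 CPM in exposed libraries. Fmod followed with 18.5 and 17.7 CPM in controls and 14.2, 23.0 and 26.6 CPM in exposed libraries. Prg4 stood at 4.62 and 3.46 CPM in controls and at 0, 12.4 and 21.1 CPM in exposed libraries. The library without a Prg4 count, exposed library 1, was the shallowest of the series, and 0 counts there allow up to 0.699 CPM. Comp had 0 counts in the same library, and Cilp, with 0 counts in exposed library 2 and under 1 CPM elsewhere in brain, was not tested. The edgeR fit called 0 of the 7 genes tested, beside 0.00598% of 16734 genes (2272 had an unadjusted p under 0.05, DESeq2 called 712 and limma-voom 899 genes). Limma-voom called none of the 7 either, and DESeq2 none of the 4 to which it gave an adjusted p. The fitted difference of Sox9 was 0.51 (log2, SE 0.44, interval -0.35 to 1.36, edgeR adjusted p = 0.649, range 0.122 to 1.00 over the alternatives). With 3 exposed libraries the intervals were wide, from -1.39 to 4.21 for Prg4. Cilp2 lay above both controls in every exposed library, at 1.17, 4.65 and 3.48 CPM against 0.797 and 0.80 CPM, as did 19.9% of all genes tested, and was not past the threshold either (difference 1.88, SE 1.12, edgeR adjusted p = 0.512, range 0.145 to 1.00 over the alternatives). The 2 libraries with the most Prg4, exposed libraries 2 and 3, also had fibroblast marker sums of 1438 and 1872 CPM, against 230 CPM in exposed library 1 and 136 and 149 CPM in controls. The part of those cells in the Prg4 level was not tested.

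**Figure D5:**
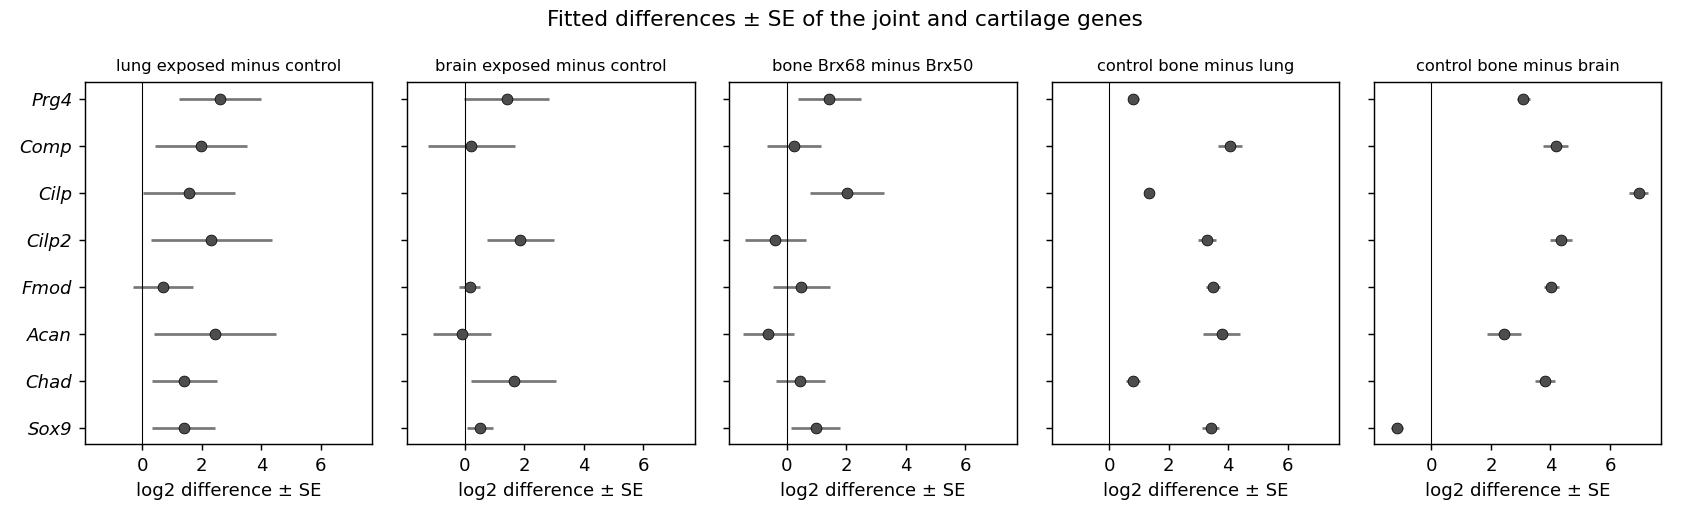
Fitted log2 difference (points) ± SE (lines) of each gene in 5 contrasts; Cilp was not tested in exposed against control brain. Error bars are mostly longer for exposed minus control and for Brx68 minus Brx50 than between control tissues, where Sox9 alone lies on the brain side of 0 (-1.14).

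The tissues of tumour-free mice are compared as a description, because the genes were picked as joint genes with their bone levels, and lung and brain as the contrast, in view. Comp stood at 37.1, 48.5 and 21.2 CPM in bone against 1.88 and 2.33 CPM in lung and 1.75 and 2.53 CPM in brain. Fmod stood at 247, 341 and 209.8 CPM in bone against 20.2 and 26.6 CPM in lung and 18.5 and 17.7 CPM in brain. For neither gene did the groups overlap, which held for bone above lung in 33.5% and for bone above brain in 37.8% of 18859 genes. The edgeR fit called all 8 higher in control bone than in control lung, beside 22.5% of genes called higher, 22.3% called lower and 44.8% called in either direction. Differences were 4.05 for Comp (log2, SE 0.40), 3.79 for Acan (SE 0.62), 3.49 for Fmod (SE 0.23), 3.41 for Sox9 (SE 0.29) and 3.28 for Cilp2 (SE 0.31). Prg4, Chad and Cilp, which lung held as well, were higher in bone by 0.82 (SE 0.18), 0.81 (SE 0.23) and 1.34 (SE 0.17). Without lung control 1 Chad was no longer called (0.69).

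Against control brain, edgeR called 7 of the 8 genes higher in bone, and 1 lower, beside 37% of genes called higher and 38.9% called lower (75.8% in all). Differences were 4.35 for Cilp2 (log2, SE 0.37), 4.18 for Comp (SE 0.42), 4.03 for Fmod (SE 0.25), 3.80 for Chad (SE 0.34), 3.09 for Prg4 (SE 0.23) and 2.45 for Acan (SE 0.57). Cilp, at 6.96 (SE 0.33), rests on 1 and 2 counts in the brain controls. Sox9 went the other way and was lower in bone (difference -1.14, SE 0.21). Acan was no longer called without the filter on low counts (2.48). Both tissue contrasts share the 3 bone controls. The fibroblast markers summed to 11067 to 20888 CPM in control bone against 1908 and 2295 CPM in control lung and 136 and 149 CPM in control brain, and their part in these differences was not tested. Of the 86 related genes, 39 were higher and 13 lower in bone than in lung among 78 tested, and 54 were higher and 11 lower than in brain. In the hyaline matrix list 7 of 10 tested were higher in bone than in lung, and 5 were higher and 3 lower than in brain. The joint lining list was split against lung, with 4 of 9 tested higher and 4 lower in bone (median difference -0.76, log2). Against brain 6 of its 9 tested genes were higher in bone and 0 lower. Of its members, Clic5 had a mean of 650 CPM in control lung against 108 CPM in control bone. Has1 went the other way, with means of 21.1 and 66.8 CPM. In the tendon and ligament list 7 of 10 were higher than in lung and 8 of 10 higher than in brain. Thbs4 of that list was higher in bone than in lung by 6.01 (log2, SE 0.32) and than in brain by 6.96 (SE 0.36). Among the relatives of Comp and Acan 4 were lower in bone than in brain, and all 4 (Ncan, Bcan, Hapln2 and Hapln4) encode matrix proteins of brain.

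The genes whose levels were most like the mean of the 8 over the 13 exposed bone libraries were Col6a3 (Spearman's rho 0.96), Pth1r (0.92), Col15a1, Pcolce and Angptl2 (each 0.91), Srpx2 (0.91), Fibin, Loxl3 and P3h1 (each 0.90) and Col5a3 (0.90), out of 10246 genes ranked. Col6a3, Col15a1 and Col5a3 encode collagen chains, and Pcolce, Loxl3 and P3h1 encode proteins that process or crosslink collagen. Pth1r is the receptor for parathyroid hormone. Col6a3 ran from 183 to 2985 CPM in exposed bone and had a mean of 404 CPM in controls. By Pearson's r 4 of these 10 were again among the first 10, and over all 16 bone libraries 5 of 10. Col6a3 was also in the fibroblast list and Pth1r in the growth plate list.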

How the data were processed

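The authors deposited raw counts per gene as 1 table with 43346 Ensembl identifiers and 30 libraries. The submitters' processing notes name STAR 2.5.2b, HTSeq and the builds mm10 and GRCm38.p5 beside human ones, with no roles. Strand setting, annotation and separation of human from mouse reads are not stated there or in the labels. Symbols came from GENCODE M21 on GRCm38, and 884 identifiers without one held 0.132% of counts and stayed in the tests.

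The test was that of edgeR 4.0.16, run in R 4.3.3 on the raw counts (quasi-likelihood F-test, two-sided, robust, TMM scaling, filterByExpr, Benjamini-Hochberg adjustment over all genes tested, threshold 0.05). Each tissue was fitted alone, the 7 control libraries together, and Brx68 with Brx50 over 11 bone libraries. The script was checked on simulated data. Alternatives were other scalings, no filter, DESeq2 1.42.0, limma-voom (limma 3.58.1), each library left out, and 2 libraries left out in bone and in lung, the last chosen after seeing the data. CPM used the unscaled library total.

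The 8 genes, the 9 related lists and the 10 marker lists were chosen with earlier results of these data known. Of the related genes the text names those with the highest mean CPM in bone, and all 8 small leucine-rich proteoglycans. It gives counts for those called between control tissues, with examples chosen after their values were seen. The 10 most similar genes were ranked among symbols with a mean of at least 10 CPM in exposed bone. Every pair of libraries within a group differed by more than sampling noise. Replicate numbers of control libraries did not pair them: deviations of same-numbered libraries correlated at 0.03, -0.07 and -0.03.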

Additional observations from a re-analysis of the deposited data

Results flagged for a closer look

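Each of the 8 genes was checked for a library far from the others in 3 groups (Brx50 bone, Brx68 bone and exposed lung), 24 sets in all. In 11 of them the highest library was separated from the next by a gap beyond the 95% limit of Dixon's test for its group size. That limit flags about 1 in 20 groups of normally distributed values, and here it was applied to untransformed CPM. Values with a long upper tail are flagged more often, so 11 of 24 is not read as an excess. The 11 are not independent, because 5 are from 1 bone library and 3 from 1 lung library.

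In Brx50 bone, exposed library 3 was far above the other 3 libraries in Acan (323 CPM, next 34.5 CPM), Comp (524 CPM, next 103 CPM), Cilp (270.3 CPM, next 38.6 CPM), Cilp2 (147 CPM, next 10.2 CPM) and Fmod (2246 CPM, next 165 CPM). Its Prg4 of 364.9 CPM was not, since exposed library 6 held 371 CPM. In Brx68 bone, exposed library 11 had the highest Cilp2 (98.6 CPM, next 44.9 CPM). In exposed lung, library 1 was far above the others in Cilp (134 CPM, next 22.6 CPM), Cilp2 (42.3 CPM, next 2.24 CPM) and Sox9 (23.1 CPM, next 7.21 CPM), and library 3, the only Brx42 library, in Chad (75.1 CPM, next 16.8 CPM) and Acan (48.5 CPM, next 13.3 CPM).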

How the results depend on the processing

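The number of genes called in bone (0) was 20 with DESeq2 and 2866 with limma-voom, which also called 17 related genes, and 0 to 2 when a library was left out (2 without exposed library 8). In lung (0) DESeq2 called 3 and limma-voom 1. In brain (1) the count was 273 without the filter, 712 with DESeq2 and 899 with limma-voom (related genes 2, 9 and 10), and 0 to 69 when a library was left out (69 without exposed library 1; related genes 0 to 4). Between lines (0) DESeq2 called 31. The 8 genes kept their direction in bone under every alternative run (176 values). In lung, Cilp2 turned to -0.37 with DESeq2, -0.22 with limma-voom and -0.26 without libraries 1 and 6, and ran from -0.38 (without library 1) to 2.73 when a library was left out. Cilp turned to -0.24 with limma-voom. In brain, leaving out a library gave -1.33 to 0.39 for Acan, -0.18 to 0.79 for Comp and -0.054 to 0.38 for Fmod. Between lines, Acan turned to 1.25 and Cilp2 to 1.56 with limma-voom, and leaving out a library gave -0.99 to 1.64 for Acan, -1.01 to 2.47 for Cilp2 and -0.077 to 1.76 for Comp, each highest without library 3. The cause was not tested. With a replicate block on the control libraries, whose numbers did not pair them, 7377 genes were called between bone and lung and 13524 between bone and brain, with 8 of the 8 genes called in each. The block changed no call of the 8 genes. The brain control numbers differ between title and description. Depth limits Cilp in brain and Acan in lung, at few counts per library.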
